A study of Homo sapiens with 20 samples.

Results

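The genes described here are 8 genes of polyamine metabolism, chosen by name from the 20033 protein-coding genes of the annotation: 4 synthesis genes (ODC1, AMD1, SRM and SMS) and 4 genes that restrain, release or reverse synthesis (the antizyme genes OAZ1 and OAZ2, the antizyme inhibitor gene AZIN1 and the breakdown gene SAT1). The data are ChIP-seq, which maps where a protein sits on DNA, from the established prostate cancer cell line PC-3. Antibodies were against c-Myc (called MYC here) and RNA polymerase II (POL2). The genotypes were wild-type (WT) and a knockout of the kinase gene SLK (SLK-KO), which carries the name PSD10 in the labels. Whether PSD10 is a single clone is not stated there. No drug or other agent is named for either genotype. For each antibody and genotype 3 libraries were analysed, 12 in all, each as a list of 1-bp peak summits with a score. Another 6 IgG libraries and 2 Input libraries belong to the study and were not used here.

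Polyamines (putrescine, spermidine and spermine) are small cations that bind nucleic acids and are needed for growth, and prostate epithelium is known for making them in large amounts. Ornithine decarboxylase (ODC1) makes putrescine, S-adenosylmethionine decarboxylase (AMD1) supplies the aminopropyl donor, and spermidine synthase (SRM) and spermine synthase (SMS) add aminopropyl groups. Antizymes (OAZ1, OAZ2) bind ornithine decarboxylase and send it to the proteasome, the antizyme inhibitor (AZIN1) binds antizyme in its place, and spermidine/spermine acetyltransferase (SAT1) starts breakdown and export. ODC1 is a textbook target of MYC, which binds the E-box CACGTG together with MAX.

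The lists differed in length, and read depth is unknown. WT MYC lists held 365, 201 and 267 summits and SLK-KO MYC lists 1218, 1420 and 988. WT POL2 lists held 17126, 5047 and 9925 summits and SLK-KO POL2 lists 19017, 15436 and 16298. WT POL2 replicate 2 stood apart with the shortest list. Summits are called peaks and not amounts of binding, and a rank below is a summit's place by score within its own list, 1 being the best. SLK itself had a POL2 promoter summit in 2 WT libraries and in all 3 SLK-KO ones, and this assay does not check the knockout. Of the markers of the labelled epithelial type, KRT8, KRT18 and KRT19 had a POL2 summit in 6 of 6 libraries, EPCAM in 1 WT and 3 SLK-KO libraries and CDH1 in 1 WT library. Of the prostate genes, KLK2 and KLK3 had none in any library and TMPRSS2 had one in 6 of 6. DCN, COL1A2, PTPRC and CD3E also had none, while COL1A1 had one in 2 WT and 2 SLK-KO libraries. Nothing in the labels says that same-genotype libraries came from separate cultures beyond the word biological replicate, so the spread between them may be partly technical.

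E-boxes with a MYC summit within 100 bp were found at ODC1, SRM and AZIN1. That of AZIN1, at -658 bp, is not shown, and the sequences below are those of ODC1 and SRM. Each is given on the gene's strand, 5′ to 3′, with 12 bases on each side and the E-box in capitals, from GRCh38. The number after the gene is the distance of the E-box centre from the canonical start in bp, negative upstream. ODC1 is on the minus strand of chromosome 2 (gene 10439968 to 10448327) and SRM on the minus strand of chromosome 1 (gene 11054584 to 11060020).
ODC1 -491 (chr2:10448803-10448832): cccggcggggccCACGTGgccagcacatcg
ODC1 +288 (chr2:10448024-10448053): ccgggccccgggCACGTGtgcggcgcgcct
ODC1 +322 (chr2:10447990-10448019): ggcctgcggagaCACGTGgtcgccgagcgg
SRM -197 (chr1:11060200-11060229): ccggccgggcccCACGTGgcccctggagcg
The upstream E-boxes of ODC1 and SRM shared an unbroken run of 11 bases, CCCACGTGGCC. This was the longest run between any pair of E-boxes within 1 kb of the canonical start of these genes. The E-boxes of SRM at +453 and +543, without a MYC summit within 100 bp, shared 10 bases, CCACGTGTCA. How often E-boxes of other genes share such runs was not counted. The E-boxes of ODC1 at +288 and +322 lie in intron 1 of the canonical transcript and shared only the 6 bases of the motif.

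The wider surroundings are shown for the upstream E-boxes and for the intron, with the E-box again in capitals. The ODC1 upstream stretch covers the second MYC site of that gene. The ODC1 intron stretch holds the first E-box of intron 1, and the SRM stretch ends before every annotated SRM start.
ODC1 upstream (chr2:10448728-10448907): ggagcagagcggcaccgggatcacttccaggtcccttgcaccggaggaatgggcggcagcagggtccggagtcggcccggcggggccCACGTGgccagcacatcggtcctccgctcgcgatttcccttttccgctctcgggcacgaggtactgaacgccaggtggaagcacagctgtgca
ODC1 intron (chr2:10448015-10448119): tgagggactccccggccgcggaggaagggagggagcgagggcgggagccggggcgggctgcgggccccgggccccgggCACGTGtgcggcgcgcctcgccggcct
SRM upstream (chr1:11060021-11060268): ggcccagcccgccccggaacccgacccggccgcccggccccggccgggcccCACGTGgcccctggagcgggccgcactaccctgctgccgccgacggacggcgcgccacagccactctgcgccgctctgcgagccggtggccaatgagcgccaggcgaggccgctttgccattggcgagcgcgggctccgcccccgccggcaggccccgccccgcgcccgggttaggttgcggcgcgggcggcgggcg

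MYC was found at ODC1 in every library, at AZIN1 in the SLK-KO libraries and at SRM in 1 library, and at none of the other 5 members. A summit was assigned to a gene when it lay within 1 kb of any annotated start of the gene. ODC1 was thus 1 of the 99 genes with a MYC promoter summit in 6 of 6 libraries, which is 0.494% of all protein-coding genes and 0.91% of the 10765 with a POL2 promoter summit in at least 1 library. AZIN1 had a called MYC summit in none of the WT and all 3 of the SLK-KO libraries. This split was shown by 0.874% of all genes and 1.62% of those with POL2. SRM had a called MYC summit in SLK-KO replicate 3 alone. A summit in just 1 library, an SLK-KO one, was seen at 4.37% of all genes and 7.99% of those with POL2. AMD1, SMS, OAZ1, OAZ2 and SAT1 had no MYC summit in any library, and the nearest one was 608907 bp, 100849 bp, 157968 bp, 481584 bp and 115727 bp from their canonical starts. At least 1 MYC library had a promoter summit at 3 of the 8 members, at 9.66% of all protein-coding genes and at 17.7% of those with POL2. All 8 members had POL2 in at least 1 library.

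At ODC1 the best MYC summits sat in intron 1 of the canonical transcript, beside the paired E-boxes and near internal annotated starts of ODC1. From the canonical start they lay 234, 357 and 233 bp downstream in the 3 WT libraries and 343, 282 and 257 bp downstream in the 3 SLK-KO libraries. The nearest annotated ODC1 start was 79, 40 and 80 bp away in WT and 26, 31 and 56 bp away in SLK-KO. The genotypes overlapped (WT mean 275 ± 71.3 bp, SLK-KO mean 294 ± 44.2 bp, SD, n = 3 each, exact two-sided permutation p = 0.6, adjusted 0.914 over the 99 genes). All SLK-KO summits lay downstream of the WT ones at 10.1% of the 99 genes and upstream at 7.07%. All 6 summits had both the +288 and the +322 E-box within 100 bp, the closest being 6.5 bp from the centre of the former. SLK-KO replicates 1 and 2 had a second MYC summit, at -442 and -544 bp from the ODC1 start and 16 and 86 bp from a start of the divergent long non-coding RNA ODC1-DT. These second summits lay on either side of the -491 E-box. They ranked 884 of 1218 and 779 of 1420, past the last rank of the longest WT list.

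**Figure D1:**
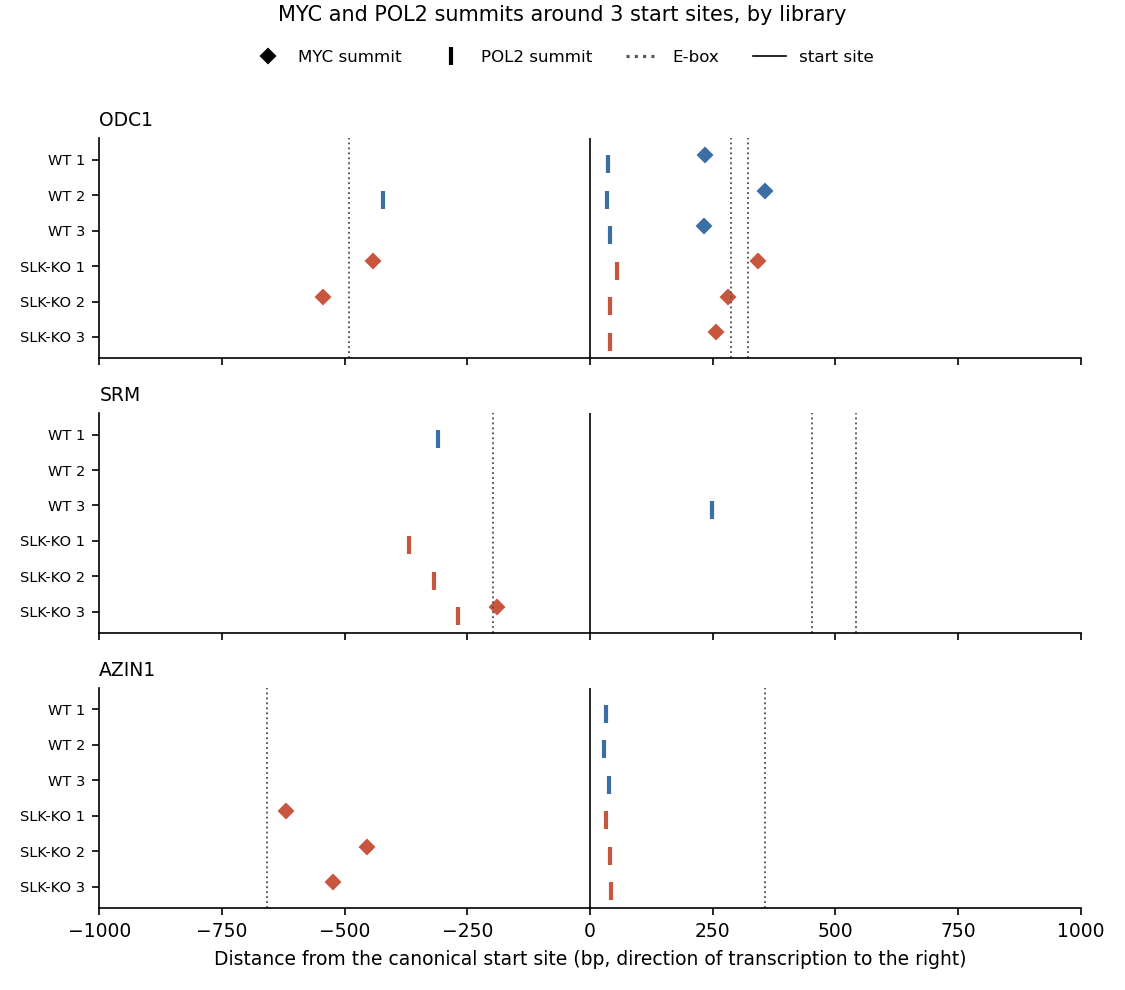
MYC summits (diamonds) and POL2 summits (bars) within 1000 bp of the canonical start of ODC1, SRM and AZIN1, 1 row per library (blue WT, red SLK-KO), by distance in bp; dotted lines mark CACGTG. At ODC1 all 6 libraries have a MYC summit 233 to 357 bp downstream, while at AZIN1 only the SLK-KO libraries have one, from -619 to -454 bp.

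ODC1 was among the weaker of the shared MYC promoters. Its best MYC summit ranked 189 of 365, 89 of 201 and 223 of 267 in WT, and 232 of 1218, 436 of 1420 and 459 of 988 in SLK-KO. Ranks in lists of unequal length are not comparable, so the 99 genes found in all 6 MYC lists were ranked among themselves in each library. On that scale, where 0 is the best and 100 the worst, ODC1 was at percentile 92.9, 56.6 and 94.9 in WT and 84.8, 91.9 and 93.9 in SLK-KO. Counting ODC1, 97 of the 99 genes had a median percentile as good as that of ODC1 (92.4) or better. The genotypes overlapped (WT mean 81.5 ± 21.6, SLK-KO mean 90.2 ± 4.77, SD, n = 3 per genotype). SLK-KO minus WT was 8.75 points, with an exact two-sided permutation p = 0.9 (adjusted 1.0). WT replicate 2 alone placed ODC1 well away from the weak end, and without it SLK-KO minus WT was -2.34 points. Of the 99 genes, 7.07% had a weaker place in every SLK-KO library than in any WT library and 10.1% a stronger one.

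At AZIN1 the MYC summits were upstream of the start and far from the POL2 summit. They lay at -619, -454 and -524 bp from the canonical start on chromosome 8 (102864163, minus strand) in SLK-KO replicates 1 to 3. They were also 324, 159 and 229 bp from a start of MAILR, a long non-coding RNA whose own start is 108 bp from that of AZIN1, so the summits cannot be given to AZIN1 over MAILR. Their ranks were 639 of 1218, 342 of 1420 and 359 of 988. All 3 ranks were past the end of the shortest WT list (201), and the first was past the end of the longest (365). Lists cut to their 201 best summits held no AZIN1 summit in either genotype. The part of list length in the split at AZIN1 was not tested. An E-box centred at -658 bp was within 100 bp of the summit of SLK-KO replicate 1 and not of the other 2.

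At SRM, the only MYC summit was at -189 bp, 7.5 bp from the centre of the -197 E-box. It ranked 193 of 988 in SLK-KO replicate 3, in the best 19.5% of that list. The other 5 MYC lists had no summit within 1 kb, also SLK-KO replicates 1 and 2, whose lists were longer. SRM has 2 further E-boxes in its first intron, at +453 and +543, neither with a MYC summit within 100 bp.

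In lists cut to 201 summits, members with a MYC promoter summit numbered 1, 1 and 0 in WT and 0, 0 and 1 in SLK-KO, against 1, 1 and 1 in WT and 2, 2 and 3 in SLK-KO with all summits. With all summits, the share of all protein-coding genes with a MYC promoter summit was 1.83%, 1.04% and 1.39% in WT and 5.49%, 6.38% and 4.66% in SLK-KO, so the full lists rose along with the members. That share was not taken for the shortened lists. In the shortened lists the members found were ODC1 in WT replicates 1 and 2 and SRM in SLK-KO replicate 3. By role, synthesis genes had a MYC summit in 1 of 4 cases in each WT library and in 1, 1 and 2 of 4 in SLK-KO. The antizyme, antizyme inhibitor and breakdown genes had 0 of 4 in each WT library and 1 of 4, AZIN1, in each SLK-KO library.

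The 3 members with a MYC summit had an E-box within 1 kb of the canonical start, and the 5 without had none there. CACGTG, which reads the same on both strands, lay within 1 kb of the canonical start in ODC1 (3 matches), SRM (3) and AZIN1 (2), and not in any of AMD1, SMS, OAZ1, OAZ2 and SAT1. Across all protein-coding genes 29.2% had a match in that window, against 81.8% of the 99 genes with MYC in 6 of 6 libraries and 32.3% of the 3615 genes with POL2 in 6 of 6 libraries. Within 100 bp of the best MYC summit of each promoter, matches were seen at 39.3%, 44.3% and 44.1% of summits in WT and 30.8%, 29.5% and 30.2% in SLK-KO, and within 100 bp of POL2 promoter summits at 3.69% to 4.61%. Farther inside the genes AMD1 has 6 matches, SMS 4 and OAZ1 1, all in introns. None had a MYC summit within 100 bp. With every annotated start counted, as was done for the summits, AMD1 (3 matches) and OAZ1 (1) also had an E-box within 1 kb, so 5 of 8 members had one, against 51.8% of all protein-coding genes. This window was added after the values had been seen.

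RefSeq promoters (GRCh38.p14, 250 bases before to 50 after the start) were matched for 7 of the 8 members, all but AZIN1. Their GC content ran from 65.3% (AMD1) to 82.0% (SRM), above the median of 63.0% over 15345 coding promoters. The ratio of observed to expected CpG ran from 0.814 (AMD1) to 1.05 (OAZ1), above the median of 0.767. CACGTG was in 1 of the 7, SRM, and in 8.89% of all coding promoters. The 8 letters CCACGTGG, which contain that E-box and are in the SRM promoter, were in 1.09%. TATAAA in the 50 bases before the start, searched on the gene's strand, was in none of the 7 and in 3.94% of all.

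POL2 split the members into 5 genes with some of the best-ranked promoter summits and 3 genes with weak ones, and the split cut across the roles. ODC1, AMD1, AZIN1, OAZ1 and SAT1 had a POL2 promoter summit in 6 of 6 libraries, which 18.0% of all protein-coding genes had. SRM, SMS and OAZ2 had one in all libraries but WT replicate 2, the shortest list, which 14.7% of genes showed. Thus 2 of 4 synthesis genes and 3 of 4 of the other members had POL2 in 6 of 6 libraries. The genes of the regulated steps (the decarboxylases ODC1 and AMD1, and SAT1) were in the first group, and the genes of the aminopropyl transfer steps (SRM and SMS) in the second. This grouping by step was not among the planned comparisons, which were by role. The antizyme genes were split, with OAZ1 in the first group and OAZ2 in the second.

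The levels by member were as follows, each as the rank of the best promoter summit in its list. At AZIN1 the POL2 summit ranked 84, 76 and 118 in WT and 259, 127 and 157 in SLK-KO. At SAT1 it ranked 141, 138 and 185 in WT and 109, 138 and 90 in SLK-KO. AMD1 was at ranks 180, 175 and 215 in WT and 140, 144 and 164 in SLK-KO. All of these were in the best 3.47% of their lists, in every library of both genotypes.

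ODC1 followed with POL2 ranks 223, 161 and 265 in WT and 386, 309 and 182 in SLK-KO, which were in the best 3.19% of every list. OAZ1 was at 361, 640 and 648 in WT and 369, 396 and 333 in SLK-KO, with WT replicate 2 the lowest at 12.7% of its list. The low group began with SMS, at 4592 and 2661 in WT replicates 1 and 3 and 7803, 9353 and 6847 in SLK-KO. OAZ2 was at 5820 and 7809 in WT replicates 1 and 3 and 5423, 7329 and 8915 in SLK-KO. SRM was at 9224 and 9214 in WT replicates 1 and 3 and 13497, 9750 and 8516 in SLK-KO, between 52.3% and 92.8% of the way down its lists. No library placed SMS, OAZ2 or SRM above any of the 5 leading members.

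**Figure D2:**
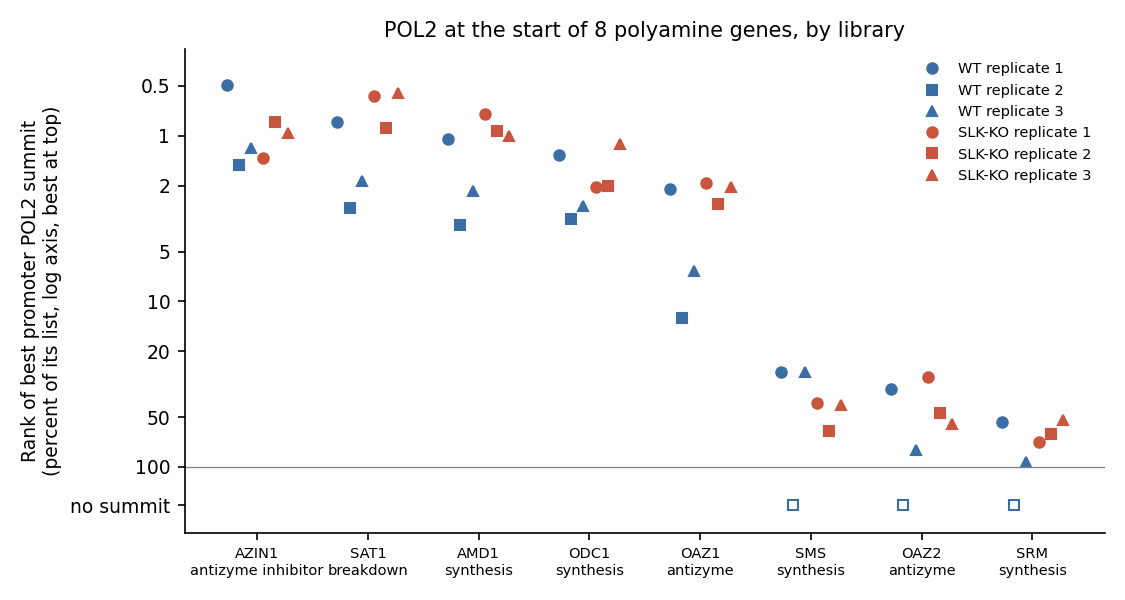
Rank of the best POL2 summit within 1 kb of a start, as a percent of its list (log axis, best at the top), for the 8 members in 6 libraries; open symbols mark a library with no summit. AZIN1, SAT1, AMD1 and ODC1 stay in the best 3.47% of every list, while SMS, OAZ2 and SRM lie at 26.8% or beyond and are missing from WT replicate 2.

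To place all 8 members on 1 scale, the 6567 genes with a POL2 promoter summit in the 5 libraries other than WT replicate 2 were ranked among themselves. The median percentiles were 1.49 for AZIN1, 1.68 for SAT1, 2.16 for AMD1, 3.81 for ODC1, 5.56 for OAZ1, 82.8 for SMS, 85.0 for OAZ2 and 95.6 for SRM. Neighbours in this order overlapped in their ranges over the 5 libraries with 1 exception: OAZ1 (4.87 to 9.82) lay apart from SMS (39.7 to 93.1). Between the best and the weakest of the 4 synthesis genes, AMD1 and SRM, the ranges (1.64 to 3.00 and 91.0 to 98.8) did not touch. These are places among called promoters in the same libraries, without a length or depth scale.

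**Figure D3:**
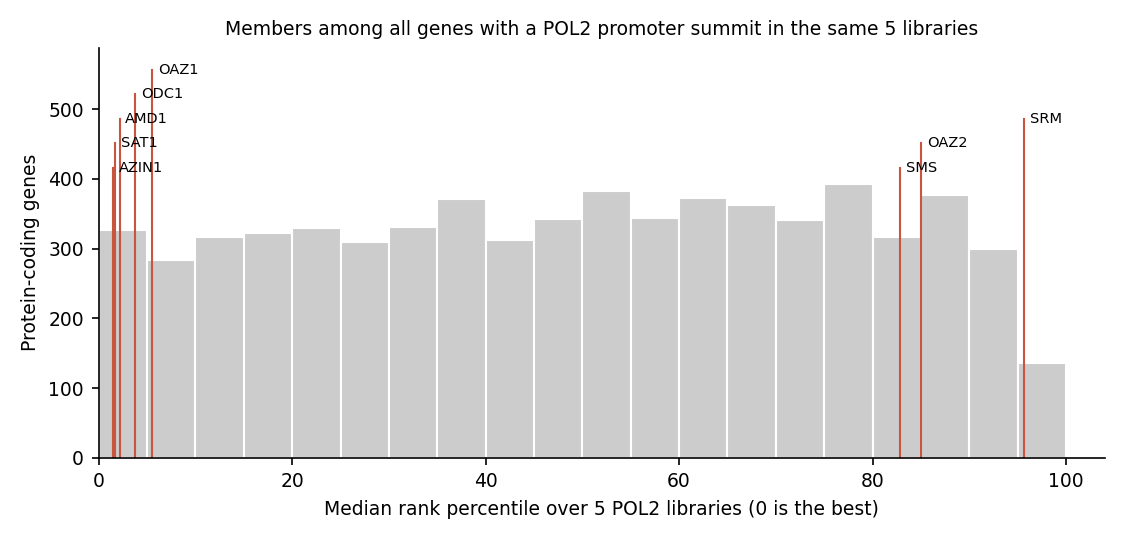
Number of protein-coding genes (bars) by median rank percentile of their best POL2 promoter summit over the 5 libraries other than WT replicate 2 (0 is the best), with the 8 members marked by red lines. Of the members, 5 lie at or below 5.56 and 3 at or above 82.8.

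Loss of SLK went with no change in POL2 rank that passed the test at any member. Over the 3615 genes with POL2 in 6 of 6 libraries, AMD1 was at percentile 4.54, 4.18 and 5.42 in WT and 2.96, 3.18 and 3.90 in SLK-KO (4.71 ± 0.641 and 3.35 ± 0.492, SD, n = 3 each, exact two-sided permutation p = 0.1, adjusted 0.335). SAT1 was at 3.40, 3.18 and 4.59 in WT and 2.21, 3.02 and 1.66 in SLK-KO, where SLK-KO minus WT was -1.43 points (exact permutation p = 0.1, adjusted 0.335). For both genes every SLK-KO library was better placed than every WT library, as for 14.9% of the genes. AZIN1 showed the opposite order, as did 15.0% of the genes. It was at 1.55, 1.27 and 2.60 in WT and 6.72, 2.68 and 3.68 in SLK-KO, where SLK-KO minus WT was 2.55 points (exact permutation p = 0.1, adjusted 0.335). ODC1 was at 5.70, 3.82 and 6.89 in WT and 10.6, 8.11 and 4.40 in SLK-KO (exact permutation p = 0.4, adjusted 0.650). OAZ1 was at 9.52, 16.8 and 17.8 in WT and 10.1, 10.8 and 8.82 in SLK-KO (exact permutation p = 0.3, adjusted 0.576). Both genes overlapped between genotypes. With 3 against 3 libraries no p can fall below 0.1, so none of these differences could pass 0.05.

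SMS was the member with the widest gap between genotypes. Among the 6567 genes of the 5 libraries it was at percentile 66.0 and 39.7 in WT replicates 1 and 3 and at 88.7, 93.1 and 82.8 in SLK-KO (52.9 ± 18.6, SD, n = 2, and 88.2 ± 5.13, SD, n = 3). The difference was 35.3 points, with every SLK-KO library below both WT libraries in the order of strength (exact two-sided permutation p = 0.1, the smallest possible with 2 against 3, adjusted 0.389). Of the 6567 genes, 20.6% showed such a separation in this direction and 19.5% in the other. In lists cut to 5047 summits, SMS had a POL2 summit in 2 WT and 0 SLK-KO libraries. This count follows from its ranks in the full lists and is not a separate result. The share of all genes with the same count was not taken. OAZ2 (-1.94 points, exact permutation p = 1.0) and SRM (-2.23 points, exact permutation p = 0.5) overlapped between genotypes.

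The position of POL2 was steady at ODC1, AZIN1 and AMD1, and also at SMS in its 5 libraries (69 to 85 bp, given below). It varied most at SRM and OAZ2. At ODC1 the summit lay 36, 35 and 40 bp after the start in WT and 55, 40 and 41 bp in SLK-KO. It lay 33, 29 and 39 bp after the AZIN1 start in WT and 33, 41 and 43 bp in SLK-KO. At AMD1 it was 33, 50 and 35 bp in WT and 25, 24 and 34 bp in SLK-KO. At ODC1, AZIN1 and AMD1 the summit fell in the untranslated first exon. None of the differences at these 3 genes passed the test (exact two-sided permutation p from 0.2 to 0.3, adjusted 0.954 or more). SAT1 varied from 29 to 113 bp and OAZ1 from -47 to 42 bp, with overlapping genotypes. At both, another coding gene model of the annotation starts within 105 bp, so the summit cannot be given to 1 model over the other. Of the 3615 genes, 5.17% had all SLK-KO summits downstream of the WT summits and 6.22% all upstream.

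SMS had its POL2 summits at 79 and 69 bp in WT replicates 1 and 3 and at 80, 85 and 81 bp in SLK-KO. The SLK-KO summits were all downstream of the WT ones (exact two-sided permutation p = 0.1, adjusted 0.903), as at 10.5% of the 6567 genes, with 11.4% the other way. At SRM the summits were at -310 and 249 bp in WT replicates 1 and 3 and at -368, -317 and -269 bp in SLK-KO. At OAZ2 they were at -164 and -50 bp in WT replicates 1 and 3 and at 105, -175 and -169 bp in SLK-KO. The 2 weakest members thus had their summits mostly before the start, while in the other 6 members the summits were after it in every library, except OAZ1 in WT replicate 2.

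MYC and POL2 summits of the same-numbered library did not coincide at ODC1 or AZIN1. MYC was 198, 322 and 193 bp downstream of POL2 at ODC1 in WT and 288, 242 and 216 bp downstream in SLK-KO. At AZIN1 MYC minus POL2 was -652, -495 and -567 bp in SLK-KO. At SRM in SLK-KO replicate 3 it was 80 bp downstream of POL2. Over all genes with both summits the median absolute distance was 193 bp to 286 bp per library. Distances larger than that of AZIN1 were seen at 14.9%, 21.4% and 17.7% of genes in SLK-KO replicates 1 to 3, and larger than that of ODC1 at 37.2% to 59.4%.

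POL2 summits inside the gene, more than 1 kb from every start, were found at ODC1, AMD1 and AZIN1 and at no other member. ODC1, the gene with most of them, had 0, 2 and 1 in WT and 2, 3 and 4 in SLK-KO over its 8360 bp. ODC1 is therefore among the genes with a gene body summit in at least 5 of 6 libraries, 12.8% of the 3615 genes and 9.45% of the 656 of them that are 5 to 15 kb long. The cut of 5 libraries equals the count at ODC1 itself and was not part of the plan. AMD1 had 1, 0 and 0 in WT and 3, 0 and 1 in SLK-KO, and AZIN1 3, 0 and 1 in WT and 0, 1 and 0 in SLK-KO. SMS, with 54129 bp, had none. Over the 8 members the gene body summits numbered 2.67 ± 1.15 per WT library and 4.67 ± 0.577 per SLK-KO library (SD, n = 3 each). In lists cut to 5047 summits there were 0, 2 and 0 in WT and 0 in each SLK-KO library, so the order of the genotypes was not the same at equal list length.

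ODC1 also had a POL2 summit just past its annotated end. It lay 110 and 794 bp past the end in WT replicates 2 and 3 and 400, 554 and 482 bp past it in SLK-KO, at ranks 1833, 1633, 4108, 3829 and 4961. WT replicate 1 had none, although its list of 17126 summits is the longest of that genotype. A summit within 1 kb past the end in at least 5 of 6 libraries was seen at 2.35% of the 3615 genes, and at 1.0% of the 2692 of them with no start of another gene within 2 kb of the end, as at ODC1. Within 500 bp of the end the count was 3 libraries. This window was chosen after the summits had been seen. No other member had such a summit in more than 2 libraries.

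**Figure D4:**
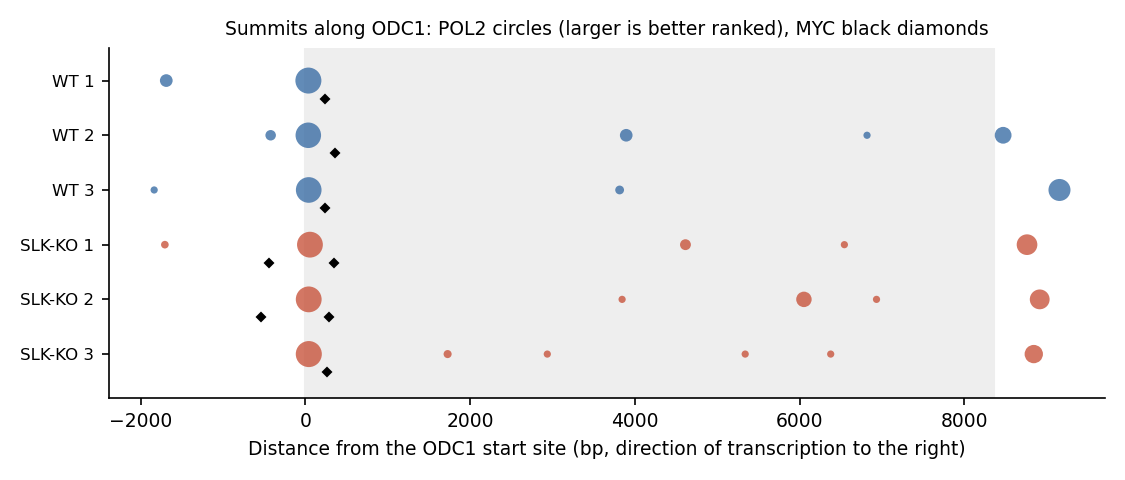
POL2 summits (circles, larger for a better rank in the list) and MYC summits (black diamonds) along ODC1 in 6 libraries per antibody, by distance from the start in bp; the shaded span is the gene. Every library has its best POL2 summit 35 to 55 bp after the start, and 5 of 6 have another 110 to 794 bp past the end of the gene.

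Among 24 other genes of the pathway, 5 had a MYC summit near a start in at least 1 library. That was seen at 9.66% of all protein-coding genes and 17.7% of those with POL2. In 6 of 6 libraries 0 of the 24 had one, against 0.494% of all genes and 0.91% of those with POL2. MAT2A, which makes S-adenosylmethionine, the substrate of AMD1, showed the same split as AZIN1, with MYC in the 3 SLK-KO libraries alone, at ranks 936, 295 and 611. This split was shown by 0.874% of all genes and 1.62% of those with POL2. Ranks 936 and 611 were past the end of the longest WT MYC list (365), and 295 was past the end of the others (201 and 267). The POL2 summit of MAT2A ranked 69, 82 and 106 in WT and 111, 101 and 116 in SLK-KO, ahead of every member in WT replicates 1 and 3 and SLK-KO replicate 2. SLC3A2, the heavy chain of amino acid transporters that has been linked to polyamine transport, had MYC in 2 WT and 3 SLK-KO libraries. In 4 of these the summit was at an annotated start far upstream of the canonical one. SLC7A1, an arginine carrier, had MYC in 1 WT and 2 SLK-KO libraries, at ranks 253, 672 and 927.

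DHPS, the first enzyme that uses spermidine to make hypusine, had MYC in SLK-KO replicates 2 and 3, at ranks 776 and 843. Both ranks were past the end of the longest WT MYC list (365). ENOPH1, of the methionine salvage pathway, had MYC at -935 and -931 bp from its start in SLK-KO replicates 2 and 3. It had no POL2 summit within 1 kb in any library. Of the 24 genes, 19 had a POL2 promoter summit in at least 1 library, against 53.7% of all protein-coding genes, and 9 had one in 6 of 6, against 18.0%. By role, POL2 in 6 of 6 libraries was found at 1 of 3 breakdown and oxidation genes (SMOX), 1 of 2 further antizyme family genes (OAZ3, at a start far from its canonical one), 3 of 6 precursor genes (OAT, MAT2A, MAT2B), 1 of 4 hypusine genes (DHPS), 2 of 5 methionine salvage genes (APIP, ADI1) and 1 of 4 transport genes (SLC3A2). The best POL2 summits of SLC3A2 were also at a start far from its canonical one, at -25031 to -25047 bp. SLC18B1 had POL2 in 0 WT and 3 SLK-KO libraries, as did 1.54% of all genes. Its ranks were 13497, 7968 and 12048, all past the end of the WT replicate 2 list (5047). The first and the last were also past the end of the WT replicate 3 list (9925), and none was past that of WT replicate 1 (17126). The part of list length in this split was not tested. No POL2 summit was called near PAOX, ARG1, EIF5A, ENOPH1 or ATP13A2, and at EIF5A the nearest in any library was 64829 bp away, which is not read as absent transcription.

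**Figure D5:**
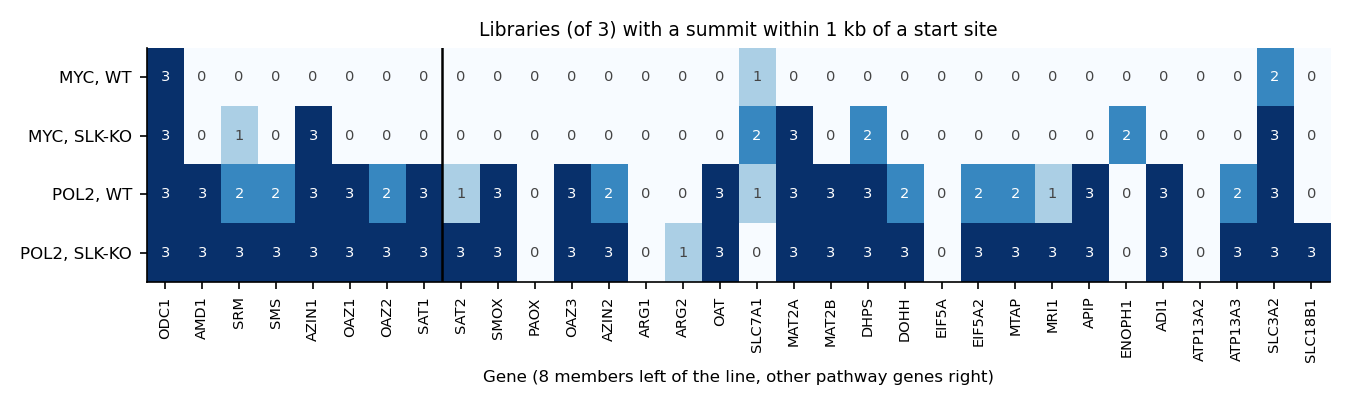
Number of libraries, of 3 per antibody and genotype, with a summit within 1 kb of an annotated start, for the 8 members (left of the line) and 24 other genes of the pathway. ODC1 is the only gene shown with MYC in 3 WT and 3 SLK-KO libraries, and AZIN1 and MAT2A have MYC in 0 WT and 3 SLK-KO libraries. MYC in 0 WT and 3 SLK-KO libraries is seen at 0.874% of all protein-coding genes.

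Over all 12 libraries, the genes most like ODC1 were sought among the 71 other genes with MYC and POL2 promoter summits in every one, by the mean absolute difference in percent of the list. ENSG00000271793 (8.83 points), GEMIN6 and SRSF7 (9.0 points each, at shared summits) and CBX5 and HNRNPA1 (12 points each, at shared summits) were closest, against a median of 19.3 points over the 71 genes. Their POL2 summits were at a median of 0.708%, 0.587% and 1.40% of the list, against 2.02% for ODC1, and their MYC summits at 28.5%, 33.6% and 57.8%, against 45.4%.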

How the data were processed

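MYC and POL2 ChIP-seq of PC-3 cells was deposited as 12 lists of summits, 1 per library. The series' design text names the nf-core/chipseq pipeline (2.1.0), GRCh38.p14 and paired reads of 50 bp. The submitters' processing notes name BWA 0.7.18-r1243 and MACS3 3.0.1. The caller's options and control libraries are not given in the sources used here. No label names the unit of the deposited score. The deposited values were taken for −log10 of the authors' peak caller q-value because each list stops just above the value that 0.05 gives, and they served only to rank summits within a list. The lists hold no counts, so depth is unknown.

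Starts came from GENCODE release 44 (GRCh38). The rank of a summit is 1 plus the number of summits with a higher score. Genes with a summit within 1 kb of a start in all 6 libraries of an antibody were ranked again among themselves and their summit positions compared. Each of these 4 families of tests used exact two-sided permutation of 3 against 3 libraries (20 relabellings) with Benjamini-Hochberg adjustment over all its genes. A check used simulated data made from the real values with their spread trimmed. In it, seeded shifts were looked for by their median difference and by ranges that did not overlap. It did not cover whether a p could call a gene. No gene passed an unadjusted p of 0.05 in any family, since 0.1 is the smallest p possible. The members, pathway list and markers were chosen with earlier results of these data known. Named genes were the members, SLK, the markers (some are not reported here), the pathway genes with MYC in at least 1 library and the 5 genes most like ODC1, and further pathway genes were named after their values were seen. Alternatives covered windows, starts, score minimums, list lengths, each library left out in turn and a replicate block. The tools were samtools 1.23.1, pysam 0.24.0, matplotlib 3.10.9, numpy 2.4.6 and Python 3.11.15.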

Additional observations from a re-analysis of the deposited data

How the results depend on the processing

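Alternatives not named here kept counts within 1.5 times, gene body means within 1 SD of the libraries and the sign of differences; many of them, such as SLK-KO counts with a WT library left out, could not change. In lists of equal length, members with a MYC promoter summit in at least 2 libraries went from 2 to 0 in SLK-KO and stayed at 1 in WT. Those with a POL2 promoter summit went from 8 to 5 in SLK-KO and from 8 to 6 in WT, and with a score of at least 5 they were 8 and 6. Gene body summits of the members then numbered 0.667 per WT and 0.0 per SLK-KO library. With a score of at least 5 they numbered 1.33 in each genotype, and more than 2 kb from every start 3.67 in SLK-KO and 1.67 in WT. Members with an E-box near a start went from 3 to 5 when every annotated start was counted. Libraries with a POL2 summit past the ODC1 end went from 5 to 3 within 500 bp. Leaving out 1 library, members with POL2 in at least 2 WT libraries ranged from 5 (without WT replicate 1, and also without WT replicate 3) to 8. The ODC1 differences (SLK-KO minus WT) ranged from -2.34 (without WT replicate 2) to 17.1 points for MYC rank, and from -5.17 (without SLK-KO replicate 1) to 60.5 bp for MYC position, also at -1.0 bp without WT replicate 1 and -1.5 bp without WT replicate 3. POL2 position ranged from -19.7 (without WT replicate 2) to 24.8 bp at OAZ1 and from -14.0 (without SLK-KO replicate 3) to 28.0 bp at SAT1. POL2 rank kept its sign at ODC1 (0.774 to 3.87 points), AMD1 (-1.64 to -0.898), AZIN1 (1.26 to 3.38), OAZ1 (-7.35 to -2.07) and SAT1 (-1.78 to -0.942). Fewer libraries are compared in these fits; the cause of the reversals was not tested. No p could pass the threshold, so staying on its side carries no information.

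The genotypes share replicate numbers. The deviations of libraries with the same number correlated at -0.220, -0.0945 and -0.127 for MYC and 0.00923, 0.0100 and -0.0160 for POL2, so the numbers were not taken to pair them. With the replicate block, sign flips left each difference as it was, such as -1.36 points for POL2 at AMD1 (exact p = 0.25, the smallest that 8 flips allow) and 8.75 points for MYC at ODC1 (exact p = 1.0), and 0 genes passed in any family.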

Other observations

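Some POL2 summits were not the best of a promoter or lay outside the promoter windows. At AMD1, WT replicates 2 and 3 had a second, lower-ranked summit in intron 1, 741 and 720 bp from an internal annotated start and 1531 and 1510 bp after the canonical start, at ranks 1216 of 5047 and 663 of 9925. Elsewhere in intron 1 only SLK-KO replicate 1 had a summit beyond the promoter one, at 2604 bp.

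Upstream of SAT1, a POL2 summit lay at -1625 bp in WT replicate 1 and at -1623, -1546 and -1579 bp in SLK-KO, 583 to 662 bp from an annotated Y RNA. Their ranks were 7456, 14974, 14441 and 9996. Upstream of ODC1, WT replicates 1 and 3 and SLK-KO replicate 1 had a POL2 summit at -1689, -1836 and -1706 bp, 165, 18 and 148 bp from a start of ODC1-DT.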
